A study of Mus musculus with 7 samples.

Results

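The RUNX transcription factors and their partner were followed at their own genes: Runx1, Runx2, Runx3 and Cbfb. Peaks of open chromatin were taken as members when their midpoint lay in a window around each gene (mm9): chr16:92550000-93100000 for Runx1, chr17:44600000-45000000 for Runx2, chr4:134600000-134800000 for Runx3 and chr8:107680000-107760000 for Cbfb. This gave 120 of 98723 peaks: 34 at Runx1, 45 at Runx2, 35 at Runx3 and 6 at Cbfb. The assay was Omni-ATAC-seq. Its transposase inserts sequencing adapters where DNA is open, so a read count per peak reflects how often the site was cut.

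All groups came from C57BL/6 mice. Marrow of donors aged 24 months was enriched for cKit-positive cells, infected with lentivirus and given to lethally irradiated recipients. At 16 weeks, donor-derived, vector-carrying haematopoietic stem cells were sorted as LSK, Flt3-, CD150+, CD48-, CD45.2+ and hCD2+. The control group (4 libraries, numbered 1 to 4) carried a control virus and the Runx3 group (3 libraries, numbered 1, 3 and 4) a virus expressing Runx3. The labels describe neither the promoter nor the insert of the vectors. Nor do they tie libraries to single animals, so the tests below weigh differences against a spread between libraries that may be technical in part. Positions in mm9 were at hand for the 4 genes only, so the sorted cell type was not checked at marker genes here.

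RUNX proteins bind DNA through the Runt domain, and Cbfb, which does not bind DNA itself, joins them and strengthens that binding. Runx1 is required for the emergence of blood stem cells and shapes their later output, Runx2 is best known as the master regulator of bone formation, and Runx3 acts in cytotoxic T cells, natural killer cells and sensory neurons. The RUNX genes are transcribed from a distal and a proximal promoter, and RUNX proteins are known to act on RUNX genes.

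The distal promoters share a sequence that RUNX proteins can recognise, which is why it is shown here. The RefSeq promoter table (GRCm38.p6, 250 bases before to 50 after a start) held 2 promoters for Runx1, 1 for Runx2, 2 for Runx3 and 1 for Cbfb. In the most upstream promoter of each RUNX gene the core ACCACA occurred in tandem, as ACCACANNACCACA. Capitals mark both cores in these stretches, written 5′ to 3′ along the gene's strand.
Runx1: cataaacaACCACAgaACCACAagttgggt
Runx2: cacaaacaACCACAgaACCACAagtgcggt
Runx3: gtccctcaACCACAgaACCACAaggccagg
The Runx1 stretch is chr16:92826025-92826054 on the minus strand and begins its first core 29 bases into the annotated transcript. The Runx2 stretch is chr17:44814583-44814612, also on the minus strand, with its first core beginning 24 bases into the transcript. The Runx3 stretch, chr4:135120503-135120532 on the plus strand, lies upstream, its first core beginning 134 bases before the start. These GRCm38 positions cannot be compared with the mm9 positions of the peaks.

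Runx1 and Runx2 are identical at 27 of the 30 bases, Runx2 and Runx3 at 21, and Runx1 and Runx3 at 19. Every pair shares an unbroken run of 18 bases or more. These counts and runs include the bases of both cores, which match because the stretches were cut around the tandem. The tandem, searched on both strands, was chosen after the sequences had been seen. It occurred in 7 of 32851 promoters of 300 bases, or 0.0213%. Besides the RUNX genes these belong to Olfr24, Gm12236, Gm15462 and Gm16225, and the Gm16225 promoter overlaps that of Runx3. The single core ACCACA or its reverse TGTGGT, which the tandem contains, was found in 16.8% of promoters. It was not found in the second promoter of Runx1 or Runx3 or in the Cbfb promoter. Such matches describe letters and do not show binding.

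The RUNX genes also share neighbours, read from the order of protein-coding genes in the same annotation. Runx1 follows Clic6 and Rcan1, Runx2 has Clic5 and Rcan2 among its nearest 4 on one side, and Runx3 has Clic4 and Rcan3 among its nearest 4 on one side. The Clic genes encode chloride intracellular channel proteins and the Rcan genes regulators of calcineurin. Supt3, a subunit gene of a transcriptional coactivator complex, overlaps Runx2, so a peak in the Runx2 window may belong to either gene. Cbfb lies between Ces4a, a carboxylesterase gene, and D230025D16Rik. Since no mm9 annotation was used here, no peak could be assigned to a promoter, exon or intron. In the other windows, too, a peak may belong to a neighbouring gene.

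Total counts in peaks ran from 1738164 to 3758422 per library, and the members held between 0.112% and 0.128% of them. Levels are given as CPM, in which each library is scaled to the same size, and 3 reads make 0.798 to 1.73 CPM. The counts carry no molecular identifiers, so errors and intervals do not cover duplicate molecules. The Runx3 libraries were on average shallower, with a mean total of 2238860 against 3113949. Control 1, control 2 and Runx3 1 share 57 peaks that were at least 8-fold above every other library (0.5 CPM added), and 0 of these lie in the windows. Set 1 below means these 3 libraries and set 2 the remaining 4. Of the members, 65 had enough reads to be tested: 22 at Runx1, 18 at Runx2, 23 at Runx3 and 2 at Cbfb. The other 55 were too shallow for the low-count filter, which required a count of about 10 in several libraries.

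The Runx3 window was rich in open sites. It held 17.5 peaks per 100 kb, against 11.2 at Runx2, 7.5 at Cbfb and 6.18 at Runx1. When the genome was divided into pieces as long as the window, and those with a peak were counted, Runx3 had more peaks than 99.6% of them and more summed signal than 96.2%. Runx2 had more peaks than 95.2% of pieces of its length, Runx1 more than 73.4% and Cbfb more than 66.6%. Cbfb and Runx1 exceeded 90.1% and 81.3% of such pieces in summed signal. The level of single peaks was ordinary: 12 of the 120 members were in the top 10% of all peaks, and the median member had 4.21 CPM against 4.33 CPM for all peaks.

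Signal was spread differently over the loci. At Cbfb the 1 strongest peak gave 63.2% of the summed level, while at Runx3, Runx2 and Runx1 the strongest gave 19.4%, 17.2% and 14.4%. The strongest Cbfb peak, chr8:107694002-107695689, was also the most accessible of all members. Per kb of peak, the strongest Runx3 peak stood at 63.1 CPM, that of Runx1 at 55.3, that of Cbfb at 45.6 and that of Runx2 at 43.6.

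**Figure D1:**
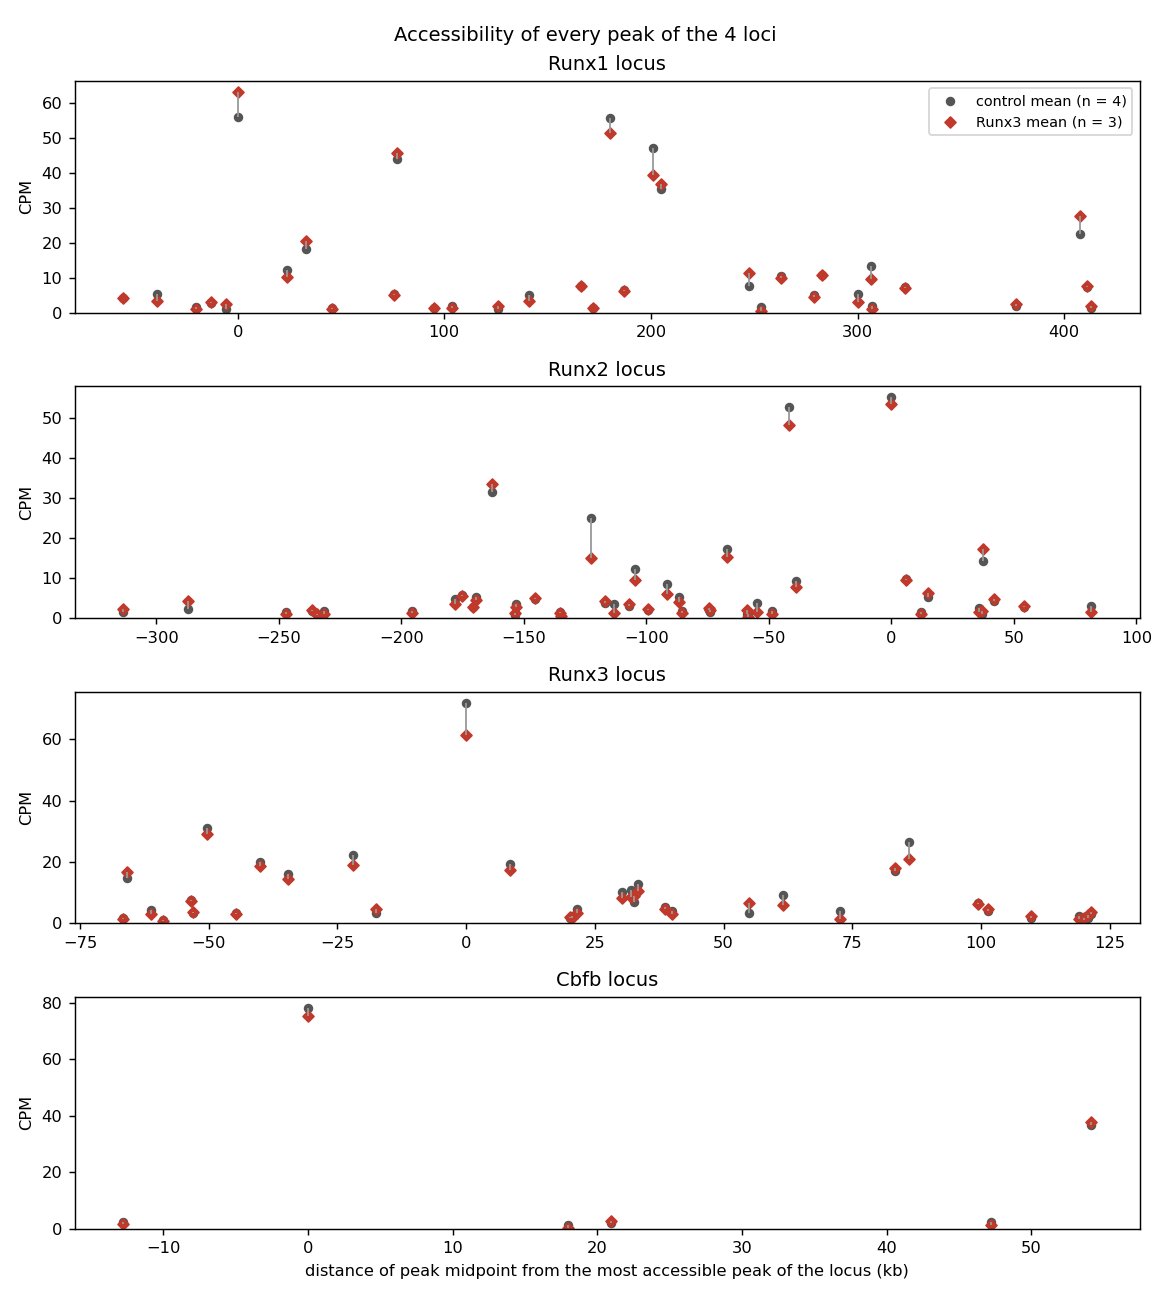
Mean accessibility in CPM (linear axis from 0) of every peak of the 4 loci against the distance of its midpoint, in kb, from the most accessible peak of the locus; grey circles are means of the 4 control libraries, red diamonds means of the 3 Runx3 libraries, and a line joins each pair. Several tall peaks stand apart at Runx1 and Runx2, while at Cbfb 1 peak gives 63.2% of the summed level.

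With the Runx3 vector, no member passed the test for changed accessibility. Of the 65 tested peaks 0 were called higher and 0 lower (edgeR quasi-likelihood test, adjusted p under 0.05), where 0.073% of all 57504 tested peaks were called. At an unadjusted p under 0.05, 1 member was higher, at Runx3, against a background of 3.91% of all tested peaks. At the same level 5 members were lower (7.69%), 2 at Runx1, 1 at Runx2 and 2 at Runx3, against 4.39% of all. Of these 5, 1 at Runx3 passed the low-count filter through control libraries alone and could hardly have been anything but lower. DESeq2 gave 1 higher and 2 lower at that level and also called 0. In bulk libraries, fewer cells with a site open and less opening per cell cannot be told apart.

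The members leaned slightly to lower values. Their log2 fold change (Runx3 over control) was below 0 in 40 of 65, or 61.5%, against 51.2% of all tested peaks. That count includes the Runx3 peak that passed the low-count filter through controls alone, as does the Runx3 median below. Among the 64 members that passed through both groups, 39 were below 0, while the share of all peaks was not split this way. The median was -0.06 at Runx1, -0.08 at Runx2, -0.13 at Runx3 and -0.002 at Cbfb, beside -0.01 for all tested peaks. When 1 library was left out, these medians ran from -0.12 to -0.02 at Runx1, -0.19 to -0.01 at Runx2, -0.22 to -0.05 at Runx3 and -0.03 to 0.04 at Cbfb. The lowest and highest at Runx2 came without Runx3 4 and without control 1, and the Runx3 value nearest 0 came without Runx3 4. The Runx1 median was 0.01 with depth as a covariate and 0.05 when only peaks averaging 20 reads or more were tested. The 3 Runx3 libraries lay entirely below the 4 controls in 4 tested members, where 4.58% of all tested peaks did, and entirely above in 2, where 4.36% did.

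**Figure D2:**
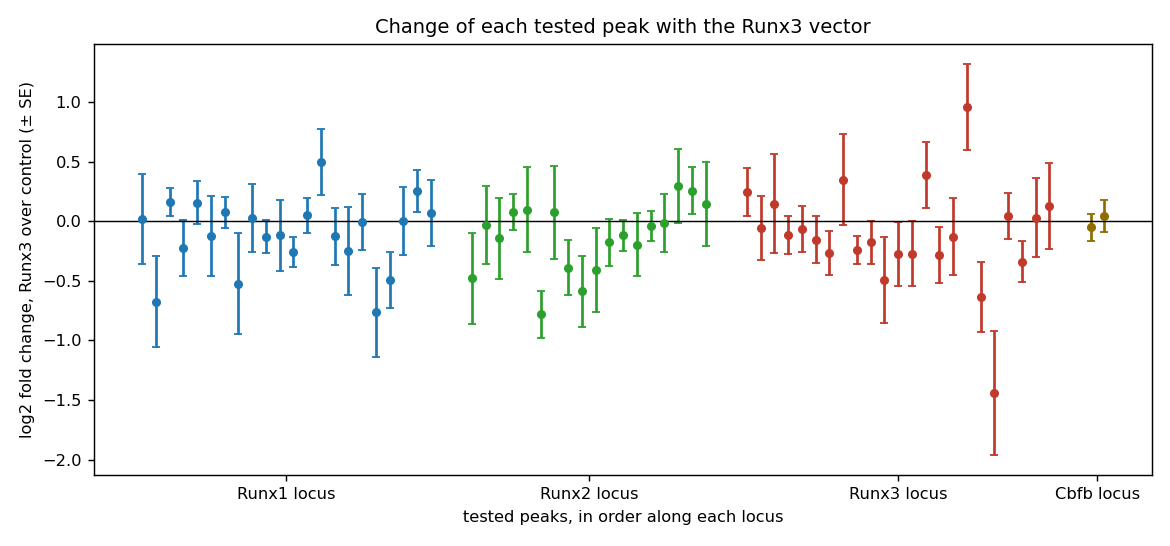
Log2 fold change (Runx3 over control, bars ± SE from the edgeR fit) of the 65 tested peaks, in order along each locus and coloured by locus; the line marks no change. The lowest point, at the Runx3 locus, is the peak that passed the low-count filter through control libraries alone, and the other 64 ran from -0.78 to 0.96.

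Runx3, the gene that the vector expresses, was examined first, peak by peak, since reads from Runx3 coding sequence in a vector would align to the exons of the gene. No strong gain was seen in the peaks of the window, none of which could be assigned to an exon. In 0 of the 35 peaks did any Runx3 library reach 2-fold above every control (0.5 CPM added), which occurred in 1.70% of all peaks. The highest such ratio, 1.80, was at chr4:134731016-134731630. Reads outside the deposited peaks were not counted, so a vector signal there would not be seen.

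At the Runx3 locus 1 of 23 tested peaks had every Runx3 library above every control, as did 4.36% of all tested peaks. That peak was the same chr4:134731016-134731630. It had 4.26, 1.07, 4.53 and 3.42 CPM in controls 1 to 4 and 8.57, 5.79 and 5.82 CPM in Runx3 libraries 1, 3 and 4. Those levels rest on few reads, 3 to 17 in the controls and 14 or 15 with Runx3. The log2 fold change was 0.96 ± 0.36 (SE; 95% interval 0.23 to 1.70), and it did not pass (edgeR adjusted p = 0.40). The log2 ratio of means was 1.52 within set 1 and 0.49 within set 2. Whether it overlaps an exon could not be read from the files, and a part of vector reads in it was not tested.

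The strongest Runx3 peak, chr4:134675759-134676827, was lower on average with the vector, but the groups overlapped. Controls 1 to 4 had 64.3, 77.8, 75.2 and 70.6 CPM, and Runx3 libraries 1, 3 and 4 had 62.9, 65.7 and 55.3 CPM. Control 1 lay below Runx3 3, and Runx3 4 was the lowest of all. The log2 fold change was -0.24 ± 0.12 (SE; edgeR adjusted p = 0.60). The next in level, chr4:134625486-134626444, had a mean of 31.0 ± 6.39 CPM (SD, n = 4) in controls and 29.1 ± 2.56 CPM (SD, n = 3) with Runx3, a log2 fold change of -0.11 ± 0.16 (SE). The third, chr4:134761865-134762575, had 26.6 ± 4.05 and 21.0 ± 4.95 CPM (SD, n = 4 and 3).

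The peak with the smallest p of the Runx3 locus was weak, chr4:134748734-134749147. It had 1.89, 5.71, 4.53 and 3.95 CPM in controls 1 to 4, and 2.29, 0.773 and 1.66 CPM in Runx3 libraries 1, 3 and 4. Control 1 fell among the Runx3 libraries, which held 2 to 4 reads each, about the level of 3 counts. The peak passed the low-count filter through controls 2, 3 and 4 alone, so it could hardly enter the tested set without being lower. No fold or test of its own is given, although it is in the counts and the Runx3 median above. A peak nearby, chr4:134737686-134738146, had 6.62, 10.3, 12.8 and 7.90 CPM in controls and 3.43, 5.79 and 8.73 CPM with Runx3 (log2 fold change -0.63 ± 0.30, SE; edgeR adjusted p = 0.56). Runx3 4 overlapped the controls there. This value went to -0.43 without control 3, to -0.41 without Runx3 1, to -0.99 without Runx3 4 and to -0.25 with depth as a covariate. At chr4:134697681-134697983 every Runx3 library lay below every control, with 3.47 ± 0.473 (SD, n = 3) against 4.88 ± 0.629 CPM (SD, n = 4), although the edgeR adjusted p was 0.79.

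Runx2 held the member with the smallest p of all. The peak at chr17:44791262-44792273 had 24.6, 29.3, 22.9 and 23.7 CPM in controls 1 to 4. It had 20.6, 15.1 and 9.15 CPM in Runx3 libraries 1, 3 and 4, all below every control. The log2 fold change was -0.78 ± 0.20 (SE; 95% interval -1.19 to -0.38), or 1.72-fold lower, with an edgeR adjusted p of 0.14. It was -0.38 within set 1 and -0.92 within set 2 as log2 ratios of means. The value leaned on single libraries. Without Runx3 4, its lowest library, the log2 fold change was -0.51 (edgeR adjusted p = 0.72), and without control 2 it was -0.70 (adjusted p = 0.43). Without control 1, where 73 peaks of the whole table were called higher and 194 lower, it was -0.79 and passed (adjusted p = 0.032). The value was -1.04 without Runx3 1 (edgeR adjusted p = 0.14) and -0.99 with depth as a covariate (edgeR adjusted p = 0.060).

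None of the neighbouring Runx2 peaks passed. The nearest tested one, chr17:44797146-44797447, was chosen after its values were seen. It had 3.85 ± 0.311 CPM in controls and 4.29 ± 2.23 CPM with Runx3 (SD, n = 4 and 3). Its higher mean rested on Runx3 1, at 6.86 CPM, while Runx3 3 and Runx3 4, at 3.09 and 2.91 CPM, lay below every control. At chr17:44809256-44810159 the means were 12.3 ± 1.59 CPM in controls (SD, n = 4) and 9.40 ± 0.736 CPM with Runx3 (SD, n = 3), with no overlap between groups (log2 fold change -0.39 ± 0.23, SE; edgeR adjusted p = 0.69). At chr17:44822400-44822847 controls had 5.20, 8.21, 9.60 and 11.6 CPM and Runx3 libraries 6.86, 4.25 and 7.07 CPM. The groups overlapped, and the log2 ratio was 0.03 within set 1 and -0.85 within set 2. Its log2 fold change of -0.59 went to -0.36 without Runx3 3 and to -0.21 with depth as a covariate.

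The most accessible Runx2 peaks differed less. The strongest, chr17:44913528-44914776, had 55.1 ± 4.23 CPM in controls and 53.4 ± 7.60 CPM with Runx3 (SD, n = 4 and 3), and its log2 fold change of -0.04 has a 95% interval of -0.29 to 0.22. At chr17:44871444-44873600, the widest member at 2156 bases, control 1 had 67.2 CPM while the other 6 libraries lay between 43.5 and 51.9 CPM. The third, chr17:44750586-44751596, had 31.6 ± 4.39 and 33.4 ± 6.76 CPM (SD, n = 4 and 3; log2 fold change 0.08 ± 0.15, SE).

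**Figure D3:**
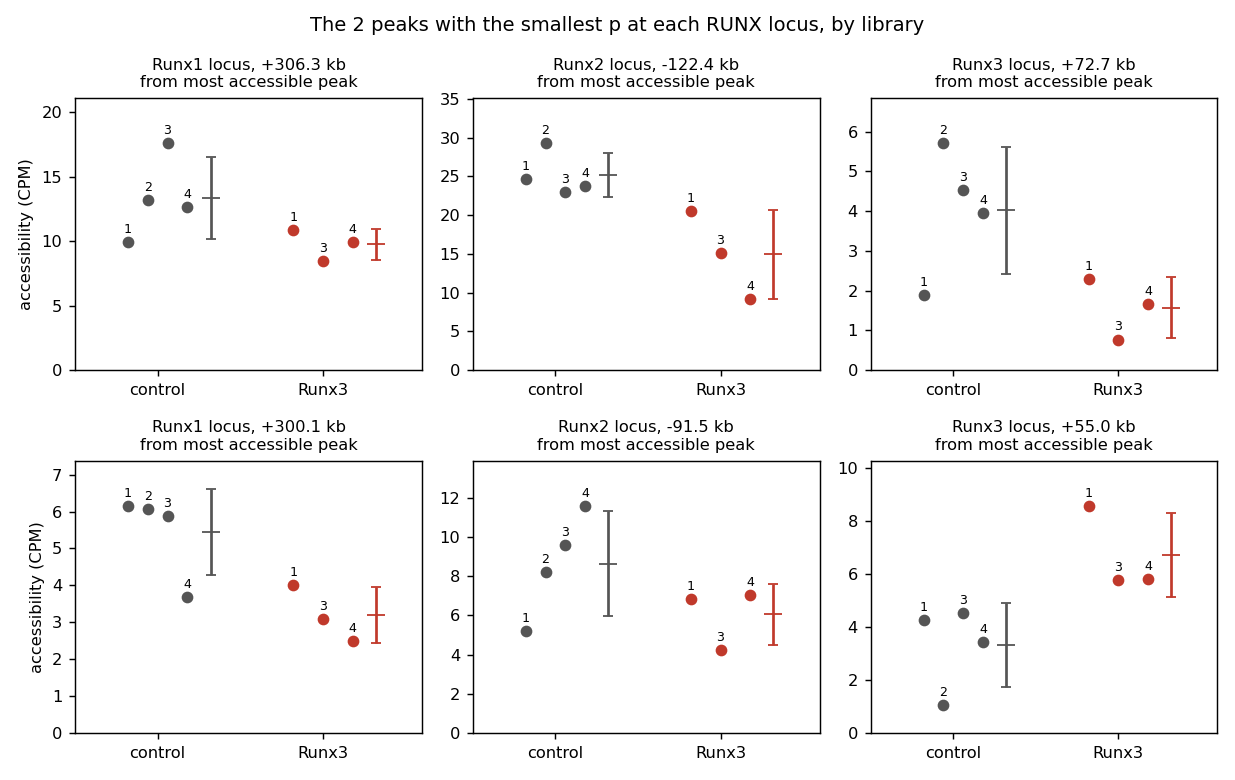
Accessibility in CPM of the 2 peaks with the smallest p at each RUNX locus, titled by their distance from the most accessible peak of that locus; dots are single libraries with their number, and bars are mean ± SD. Groups separate at the upper Runx2 panel (controls 22.9 to 29.3, Runx3 9.15 to 20.6 CPM). They also separate at the lower Runx3 panel (controls 1.07 to 4.53, Runx3 5.79 to 8.57 CPM) and overlap in the others. The upper Runx3 panel shows the peak that passed the low-count filter through control libraries alone.

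At Runx1, the RUNX gene required for blood stem cells to emerge, the strongest peak was chr16:92620837-92621907. It had 50.6, 57.1, 53.3 and 63.5 CPM in controls 1 to 4 and 64.6, 66.8 and 58.2 CPM in Runx3 libraries 1, 3 and 4. The groups overlapped in control 4 and Runx3 4, and the log2 fold change was 0.16 ± 0.12 (SE; edgeR adjusted p = 0.79). The next, chr16:92801057-92802403, had 55.7 ± 10.2 and 51.4 ± 8.90 CPM (SD, n = 4 and 3). The third, chr16:92697393-92699233, had 43.9 ± 1.83 and 45.7 ± 7.27 CPM. Their intervals, -0.41 to 0.15 and -0.18 to 0.34 on the log2 scale, exclude a 2-fold change in either direction but not a small one.

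Other Runx1 peaks came closer to the threshold. At chr16:92822155-92823079 controls had 44.0, 50.0, 45.6 and 49.3 CPM and Runx3 libraries 38.9, 38.6 and 41.2 CPM, all below the controls. The log2 fold change was -0.26 ± 0.13 (SE), similar within set 1 (-0.27) and set 2 (-0.25), with an edgeR adjusted p of 0.60. The smallest p at Runx1 was at chr16:92927098-92928312, with 13.3 ± 3.18 and 9.78 ± 1.19 CPM (SD, n = 4 and 3), a log2 fold change of -0.49 ± 0.24 (SE) and an edgeR adjusted p of 0.58. Its log2 ratio was -0.09 within set 1 and -0.68 within set 2. That fold change went to -0.32 on the log2 scale without control 3 and to -0.29 with depth as a covariate. At chr16:92921194-92921678, about 6 kb away, the means were 5.44 ± 1.18 and 3.20 ± 0.759 CPM, and control 4, at 3.69 CPM, lay among the Runx3 libraries. In the other direction, 1 of 22 tested Runx1 peaks had every Runx3 library above every control, as did 4.36% of all tested peaks. This peak, chr16:93028680-93029359, was chosen after its values were seen. It had 22.7 ± 5.78 CPM in controls and 27.8 ± 0.288 CPM with Runx3 (SD, n = 4 and 3; log2 fold change 0.25 ± 0.17, SE; edgeR adjusted p = 0.76).

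A single library decided 1 further Runx1 value, singled out after it was seen. At chr16:92868638-92869171 Runx3 1 had 18.3 CPM, while the other 6 libraries lay between 6.62 and 8.32 CPM. It was the 1 member in which a Runx3 library reached 2-fold above every control.

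Cbfb, whose protein is the shared partner of the family, showed small differences. Its strongest peak had 86.6, 72.4, 77.3 and 76.7 CPM in controls 1 to 4 and 70.3, 77.6 and 77.8 CPM in Runx3 libraries 1, 3 and 4. The groups overlapped throughout, and the log2 fold change of -0.05 had a 95% interval of -0.28 to 0.18. The peak chr8:107748415-107749540 had 36.8 ± 2.79 CPM in controls and 37.8 ± 1.41 CPM with Runx3 (SD, n = 4 and 3; log2 fold change 0.04, interval -0.23 to 0.32). The third in level, chr8:107715609-107715986, was too shallow to test, with 0.790 to 3.73 CPM.

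Summed over all peaks of a window, signal was close between the groups. The sums were tested together with windows of 200 kb over the rest of the genome, 9265 in all, of which 0.0324% were called and 9.25% had an unadjusted p under 0.05. The Runx1, Runx2, Runx3 and Cbfb windows span 550, 400, 200 and 80 kb and hold 34, 45, 35 and 6 peaks. Other windows with a peak hold a median of 8, so these shares are not like for like. None of the 4 loci was called (edgeR adjusted p 0.51 to 0.95), and 2 of them, Runx2 and Runx3, had an unadjusted p under 0.05. The sum at Runx2 was 336, 331, 330 and 315 CPM in controls 1 to 4, and 305, 309 and 291 CPM in Runx3 libraries 1, 3 and 4, all below the controls. Its log2 fold change was -0.13 ± 0.06 (SE; edgeR adjusted p = 0.52). How many of all windows have every Runx3 library below every control was not counted.

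The sum at Runx3 was 339, 388, 367 and 355 CPM in controls and 345, 347 and 296 CPM with the vector. Control 1 lay below Runx3 1 and Runx3 3, and Runx3 4 was the lowest. The log2 fold change was -0.15 ± 0.07 (SE; edgeR adjusted p = 0.51). It went to -0.06 without Runx3 4, and to -0.18 with an adjusted p of 0.092 without control 1. At Runx1 the means were 413 ± 33.4 and 410 ± 5.81 CPM, and at Cbfb 124 ± 8.78 and 119 ± 5.64 CPM (SD, n = 4 and 3). The 95% intervals of these log2 fold changes were -0.16 to 0.11 and -0.21 to 0.11.

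**Figure D4:**
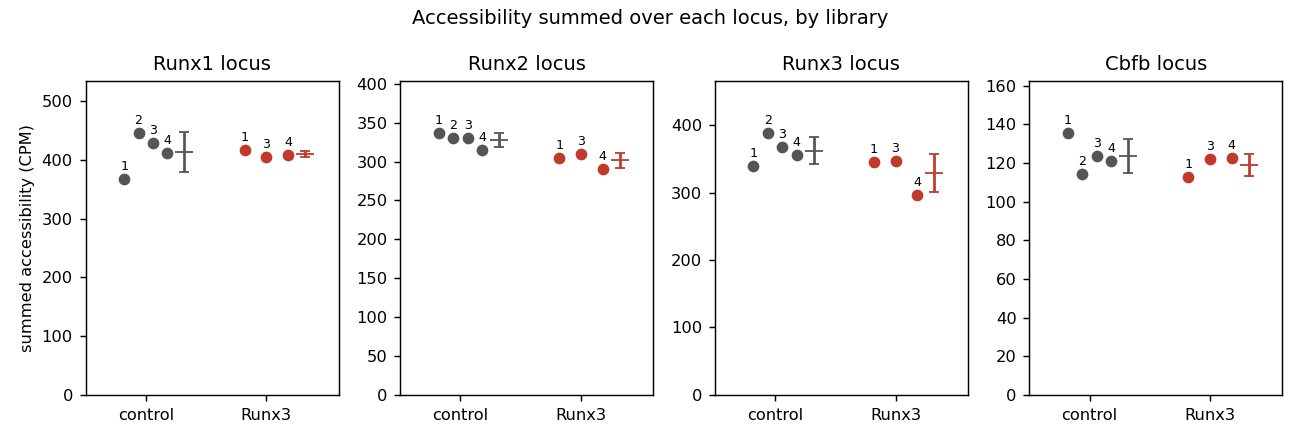
Accessibility summed over the peaks of each locus in CPM (axis from 0), by library; dots carry the library number and bars are mean ± SD of 4 control (grey) and 3 Runx3 (red) libraries. At Runx2 the Runx3 libraries (291 to 309 CPM) lie below the controls (315 to 336 CPM), and at the other loci the groups overlap. The share of all windows that separate in this way was not counted.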

How the data were processed

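Omni-ATAC-seq counts of 4 control and 3 Runx3 libraries were used. The authors deposited raw read counts per peak, without normalization. The build was mm9, and MACS2, Bowtie2, Picard, SAMtools, FastQC and Trim Galore are named, per the submitters' processing notes. Their versions and roles, the making of the peak set and any transposase shift: not given in the sources used here. Starts may be off by 1 base, as the table does not state its counting. Peaks were tested with edgeR 4.0.16 (R 4.3.3): filterByExpr (minimum count 10, minimum total 15; 57504 peaks with 91.6% of counts), TMM, robust quasi-likelihood F test of all 7 libraries, Benjamini-Hochberg over all tested peaks, threshold 0.05. CPM are TMM-normalised. The SE is the log2 fold change divided by the square root of F, and intervals use the t distribution; both are approximate. Summed counts were fitted with windows of 200 kb. The scripts were tested on simulated data. Counts of replicates differed by more than sampling noise in every pair (chi-square over its degrees of freedom, 1.20 to 2.60). Pairs with control 1 had 1.84 to 2.60, the other control pairs 1.38 to 1.50 and the Runx3 pairs 1.20 to 1.27. Alternatives used DESeq2 1.42.0, limma-voom (limma 3.58.1), other scaling and filters, a replicate block, library sets, depth and leaving out libraries. Named peaks were, per locus, the 3 with the highest level and the 3 with the smallest p, and at Runx3 those whose groups did not overlap. The members and rules were chosen with earlier results of these data known. Other genes of the pathway were not analysed here, since mm9 positions were at hand for the 4 members only.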

Additional observations from a re-analysis of the deposited data

Results flagged for a closer look

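Control libraries were examined for a value far from the other 3, over the 4 locus sums and the 22 named peaks. Of these 26 values, 1 stood out, where chance gives about 5% of them. At the Runx1 peak chr16:92921194-92921678, control 4 had 3.69 CPM, and the other controls had 5.87 to 6.15 CPM.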

How the results depend on the processing

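All alternatives were planned, and the library sets were known from earlier work. In every one 0 members were called higher. Called lower were 0, except that leaving out 1 library gave 0 to 1, the 1 being the Runx2 peak chr17:44791262-44792273 without control 1 (adjusted p = 0.032). The summed log2 fold change of Runx1, near 0, changed sign with the log2 total count as a covariate (0.027) and with the replicate block (0.015), and ran from -0.070 to 0.018 when 1 library was left out. Those of Runx2 (-0.15 to -0.09), Runx3 (-0.20 to -0.06) and Cbfb (-0.08 to -0.01) kept their sign when 1 library was left out, and none was called. Named peaks near 0 also changed sign. With the covariate these were chr4:134625486-134626444 (0.054) and chr8:107748415-107749540 (-0.023), and in set 2 alone chr8:107694002-107695689 (0.011). When 1 library was left out they were chr17:44913528-44914776 (-0.17 to 0.056), chr8:107694002-107695689 (-0.080 to 5.2e-05), chr16:92697393-92699233 (-0.062 to 0.16), chr16:92801057-92802403 (-0.27 to 0.00048) and chr17:44750586-44751596 (-0.11 to 0.21). The cause was not tested. Same-numbered libraries deviated together only weakly (r = 0.12, 0.11 and 0.067 for numbers 1, 3 and 4). Each Runx3 library was still closest to the control of its own number, the next control having r = 0.10, 0.095 and 0.030. Seen from the controls, control 4 was closer to Runx3 3 (r = 0.095). The labels name no pairing, so the numbers were not taken to pair the libraries, and whether they do was not settled. With the block, 0 members were called higher and 0 lower, while over all peaks 30 were higher and 71 lower instead of 19 and 23. Depth limits the 55 untested members.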
